A study of Zea mays with 18 samples.

Results

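Heat stress of 1 h at 39 °C was followed in leaves of the maize line labelled *nf-ya1*. The comparison rests on 6 of the 18 RNA-seq libraries of the series, namely 3 of heated leaves (*nf-ya1* 1 h) and 3 of leaves taken before heat stress (*nf-ya1* 0 h), chosen by their sample titles. The line carries a *Mu* (Mutator transposon) insertion in *ZmNF-YA1* (Zm00001eb005690), came from the UniformMu collection in the background of the inbred line W22, and was selfed for 3 generations. It is 1 insertion line, so effects of the insertion and of other differences between this line and W22 cannot be told apart. The W22 libraries at 1 h and 0 h, again 3 each, serve as the second genotype, and the 6 libraries after 2 h of recovery entered the fit only. Sample titles give 1 h of mild heat stress, whereas the deposited protocol text names 6 h and recovery of 2 d, and the titles are followed here. The time of day of each harvest is not given in the sources used here, so heat stress and the hour of sampling cannot be told apart. Where W22 is not named, 1 h and 0 h libraries below are those labelled *nf-ya1*.

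When leaves heat up, proteins begin to unfold, and heat shock transcription factors switch on genes for chaperones within minutes. Small heat shock proteins (Hsp20, with an alpha-crystallin domain) hold unfolding proteins in a soluble state. Hsp70 with its DnaJ partners, Hsp90 with its activators, chaperonins and Hsp100 disaggregases then refold them. Growth-related transcription is commonly reduced in the same period. NF-YA proteins are the subunits of the trimeric factor NF-Y that recognise the CCAAT box in DNA.

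Values are FPKM (fragments scaled to transcript length and to the mapped fragments of the library), so they are levels per length and relative to the total of a library. Each library summed to 804977 to 928910 FPKM over 36321 genes, and the read depth behind a single value is unknown. The gene given by the *nf-ya1* label was not silent, with 43.2, 36.1 and 27.0 FPKM at 1 h, against 13.0, 12.6 and 21.2 FPKM at 0 h, so the libraries are called by their label. It averaged 35.4 ± 8.08 FPKM in *nf-ya1* and 44.1 ± 5.29 FPKM in W22 at 1 h, and 15.6 ± 4.82 FPKM in *nf-ya1* and 24.2 ± 2.08 FPKM in W22 at 0 h (SD, n = 3 each). One FPKM value per gene does not show where in the gene its reads lie, so transcripts that reach beyond the insertion and those that do not cannot be told apart. No names came with the gene IDs. Protein domain labels were available for 1996 genes only, all listed by the study as differentially expressed in these libraries and with labels from the start of the alphabet. Genes counted by label were therefore selected in part on these samples and are not independent evidence of a direction. Chlorophyll a/b binding genes, which mark green leaf tissue, held 2.92 to 7.10% of the FPKM at 1 h and 7.89 to 8.50% at 0 h.

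Libraries of one time resembled each other more than libraries of different times. On log2(FPKM + 1) the correlation across genes was 0.92 to 0.97 among the 1 h libraries, 0.91 to 0.94 among the 0 h libraries and 0.72 to 0.76 between the times (across genes, which are not independent replicates). The distance between the means of the times was 3.08 times the spread of the replicates. No 2 of the 6 libraries were copies, since at most 2.54% of the genes above 0 in either library of a pair had identical values. Replicate 3 at 1 h stood apart in some genes. Of the genes that reached 100 FPKM in 1 library and differed at least 20-fold between the 3 libraries of a group, there were 15 at 1 h, and all 15 were lowest in replicate 3. There were 26 such genes at 0 h, 20 of them lowest in replicate 2, against 1 in W22 at 1 h and 1 in W22 at 0 h. Without replicate 3 at 1 h the numbers of genes called below were 1769 higher and 9274 lower, and without replicate 2 at 0 h 1642 higher and 10112 lower.

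After 1 h of heat stress far more genes were lower than higher on the scale of the deposited FPKM. Calls required a log2 fold change of at least 1 in size and an adjusted p no higher than 0.01 (limma on log2(FPKM + 1), Benjamini-Hochberg). Among 22572 genes tested, 1719 were higher (7.62%) and 9865 were lower (43.7%) at 1 h. In 72.9% of the tested genes the 1 h libraries were separate from the 0 h libraries. The largest log2 fold change was 11.89 and the smallest −6.71, and 216 genes rose and 98 fell by at least 4. Of 9120 genes with a mean of 10 to 100 FPKM at 0 h, 507 (5.56%) were higher and 4993 (54.7%) lower. Of 1102 genes at 100 FPKM or more, 80 (7.26%) were higher and 443 (40.2%) lower.

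**Figure D1:**
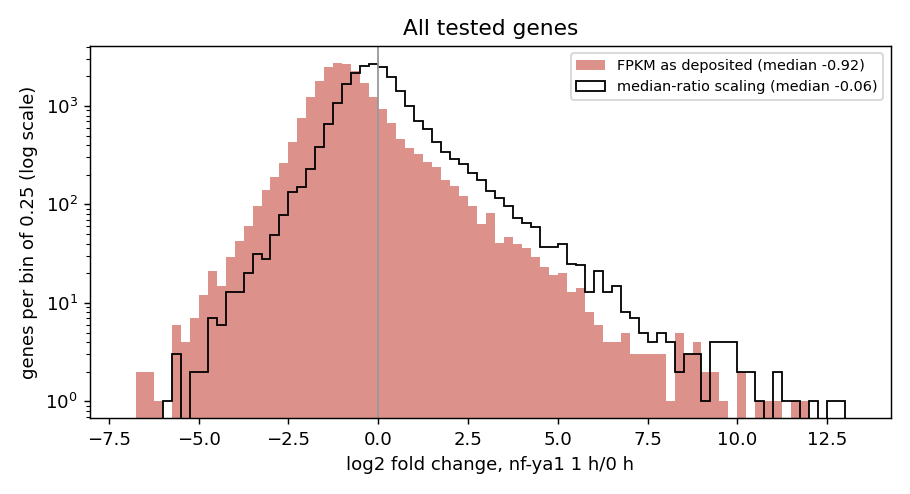
Distribution of the log2 fold change of *nf-ya1* 1 h/0 h over the 22572 tested genes, with the number of genes per bin on a log scale, for the FPKM as deposited (filled) and after median-ratio scaling (line). The median is −0.92 as deposited and −0.06 after scaling, and 25 genes lie at 8 or above as deposited.

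The excess of lower genes depended on the scale of the libraries, which FPKM fix by their total. Over all tested genes the median change was −0.92 on the log2 scale, and each change below can be read against that shift. Likewise, counts within a list can be read against 7.62% higher and 43.7% lower over all tested genes. With median-ratio scaling, which sets the typical gene to no change, the median was −0.06, and 3497 genes were higher (15.5%) and 2482 lower (11%). The share of higher genes among those called was 14.8% as deposited and 58.5% with this scaling. Scaling to the total without the Hsp20 genes, an alternative chosen after seeing the data, moved the median by 0.10. FPKM do not show whether RNA per cell changed, and in whole leaves less RNA per cell and fewer cells of a type cannot be told apart.

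Hsp20 genes led the response. Of 43 genes with this domain label, 41 passed the filter on low values, 26 were higher, 7 lower and 8 not called (median log2 fold change 5.54, against −0.92 over all tested genes). The 26 rose by 1.10 to 11.89 on the log2 scale, 23 of them had a mean of at least 1000 FPKM at 1 h and 8 a mean of at least 10000, and at 0 h 24 were under 100 FPKM and 12 under 10. In 25 of the 26 the 1 h libraries did not overlap the 0 h libraries, but these 26 were picked by their call. Among the 41 tested Hsp20 genes 32 did not overlap, against 72.9% of all tested genes. Together the labelled Hsp20 genes held 17.8, 17.4 and 18.3% of the FPKM of the 1 h libraries, against 0.19, 0.13 and 0.29% of the 0 h libraries. The groups lay far apart, although 3 libraries against 3 cannot give an exact permutation p below 0.1. Many Hsp20 genes are close copies, and how reads shared by copies were assigned is not given in the sources used here, so levels of single members are uncertain.

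**Figure D2:**
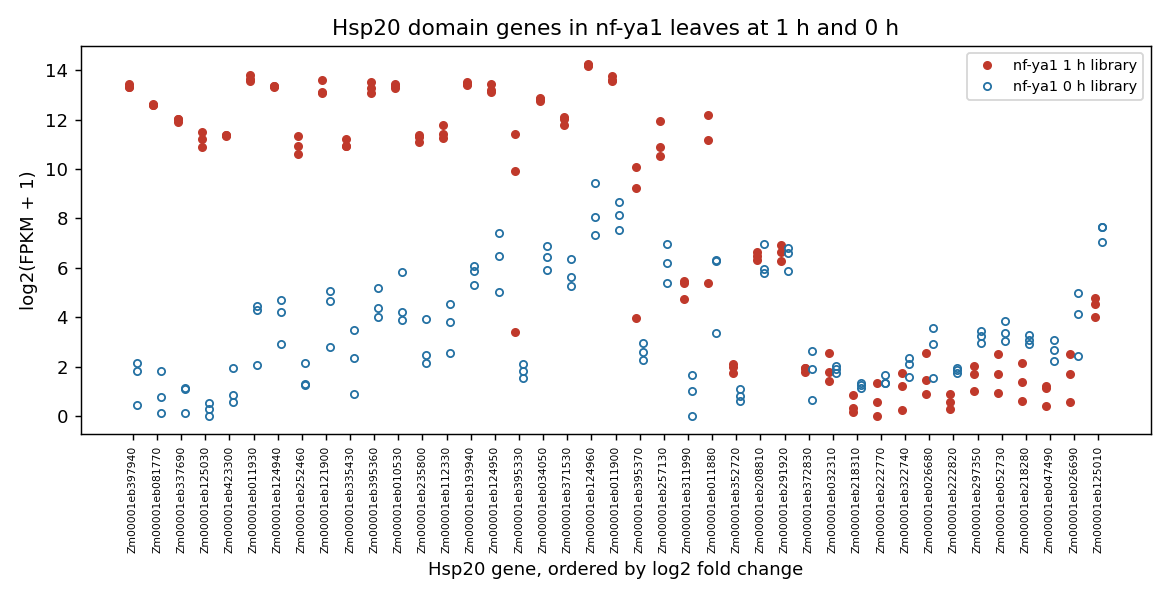
Level of each of the 41 tested Hsp20 domain genes on log2(FPKM + 1), ordered by log2 fold change, with 1 point per library (filled, *nf-ya1* 1 h; open, *nf-ya1* 0 h). Of the 26 members called higher, 23 average at least 1000 FPKM in the 1 h libraries.

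Zm00001eb124960 was the most abundant member at 1 h, with 19752, 18490.4 and 18862 FPKM at 1 h, against 267, 158 and 696 FPKM at 0 h (log2 fold change 5.94, SE 0.42, adjusted p 8.11e-09 by limma). Every 1 h library was above every 0 h library. Next among the Hsp20 genes came Zm00001eb011930, with 14208, 12728 and 11939 FPKM at 1 h, against 20.7, 3.12 and 18.8 FPKM at 0 h (log2 fold change 10.06, SE 0.49, adjusted p 2.05e-10 by limma), and Zm00001eb011900, with 12458, 12044 and 14106 FPKM at 1 h, against 281, 183 and 404 FPKM at 0 h (log2 fold change 5.54, SE 0.27, adjusted p 2e-10 by limma). At 0 h Zm00001eb011900 stood well above Zm00001eb011930, whereas their 1 h libraries lay in one range. Zm00001eb397940 reached 11058, 10129 and 10245 FPKM at 1 h, against 3.41, 0.37 and 2.51 FPKM at 0 h (log2 fold change 11.89, SE 0.29, adjusted p 1.71e-13 by limma), the largest increase of all genes with a mean of at least 10 FPKM and no overlap between the times. Zm00001eb081770 followed with 6233, 6383 and 6186 FPKM at 1 h, against 0.68, 0.07 and 2.50 FPKM at 0 h (log2 fold change 11.73, SE 0.33, adjusted p 9.07e-13 by limma), and Zm00001eb337690 with 4151, 3872 and 4210.3 FPKM at 1 h, against 1.15, 0.08 and 1.20 FPKM at 0 h (log2 fold change 11.21, SE 0.25, adjusted p 6.45e-14 by limma).

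Of the 10 largest increases 8 were Hsp20 genes. The remaining labelled ones were Zm00001eb125030 (10.93), Zm00001eb423300 (10.24), Zm00001eb124940 (9.41) and Zm00001eb252460 (9.39), with the log2 fold change in parentheses. Zm00001eb125030 was listed at 0 in 1 of the 0 h libraries and reached 1917, 2346 and 2874 FPKM at 1 h. One gene of the 10 without a label, Zm00001eb351210, was listed at 0 in all 3 libraries at 0 h and reached 1650.3, 1684 and 1794 FPKM at 1 h, so no fold is given for it. Among the 6 largest gains in FPKM were 2 further Hsp20 genes, Zm00001eb193940 (11317 ± 522 FPKM at 1 h, 54.3 ± 14.2 at 0 h, SD, n = 3 each) and Zm00001eb010530 (10586 ± 548 FPKM at 1 h, 28.7 ± 23.1 at 0 h).

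Other members did not share this pattern. Zm00001eb125010 fell to 26.5, 21.9 and 15.1 FPKM at 1 h, against 197, 132 and 202 FPKM at 0 h (log2 fold change −3.02, SE 0.24, adjusted p 3.01e-08 by limma), and with median-ratio scaling it still fell (−1.88). Zm00001eb026690 had 4.61, 2.22 and 0.48 FPKM at 1 h, against 16.4, 4.42 and 30.6 FPKM at 0 h (log2 fold change −2.27, SE 0.52, adjusted p 0.000934 by limma), with overlap between the times, and its call was lost with median-ratio scaling (−1.41, adjusted p 0.028). With that scaling 28 Hsp20 genes were higher and 2 lower. In 3 members the 1 h libraries disagreed, as described after their values were seen. Zm00001eb395330 had 2735, 953 and 9.53 FPKM at 1 h, against 3.24, 1.91 and 2.52 FPKM at 0 h, Zm00001eb395370 1093, 599 and 14.7 FPKM at 1 h, against 6.83, 4.93 and 3.86 FPKM at 0 h, and Zm00001eb011880 4694, 2303 and 40.9 FPKM at 1 h, against 79.6, 76.8 and 9.22 FPKM at 0 h. Replicate 3 at 1 h was lowest in all 3 genes, which averaged under 1 FPKM in W22 at 1 h. Whether the 3 replicates differ in genotype was not tested.

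**Figure D3:**
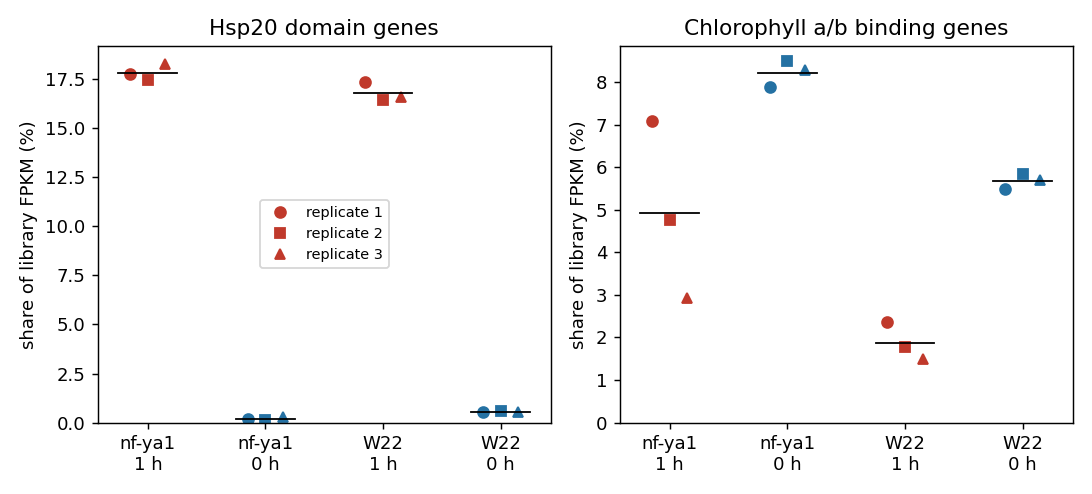
Share of the FPKM of each library held by the Hsp20 domain genes (left panel) and the chlorophyll a/b binding genes (right panel), in percent, with 1 symbol per replicate and a line at the group mean. Hsp20 shares are 17.4 to 18.3% at 1 h and 0.13 to 0.29% at 0 h in *nf-ya1*, whereas the 1 h libraries of *nf-ya1* spread between 2.92 and 7.10% in the right panel.

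Most genes with a Chaperone DnaJ or an Hsp90 activator label rose too. Of 10 tested genes with a Chaperone DnaJ label (Hsp40, which pass unfolded proteins to Hsp70) 6 were higher and 3 lower (median 2.12). The 3 are 30%, against 43.7% lower over all tested genes. Zm00001eb295770 reached 1627, 2011 and 2342 FPKM at 1 h, against 55.3, 39.6 and 55.0 FPKM at 0 h (log2 fold change 5.29, SE 0.23, adjusted p 5.64e-11 by limma), and its groups were far apart. Zm00001eb103670 had 254, 242 and 262 FPKM at 1 h, against 82.2, 17.9 and 44.8 FPKM at 0 h (log2 fold change 2.61, SE 0.50, adjusted p 0.000213 by limma), and Zm00001eb106600 228, 215 and 237 FPKM at 1 h, against 48.2, 36.2 and 36.6 FPKM at 0 h (log2 fold change 2.47, SE 0.18, adjusted p 1.27e-08 by limma). Zm00001eb218560 fell to 79.8 ± 7.50 FPKM at 1 h, against 202 ± 24.1 at 0 h (log2 fold change −1.33), and Zm00001eb288550 fell by 2.96. The call of Zm00001eb218560 did not hold with median-ratio scaling (−0.17), under which 7 DnaJ genes were higher and 1 lower. All 3 genes for activators of the Hsp90 ATPase rose. Zm00001eb037640 had 740.2, 979 and 1222 FPKM at 1 h, against 34.2, 27.4 and 35.7 FPKM at 0 h (log2 fold change 4.85, SE 0.20, adjusted p 4.25e-11 by limma). Zm00001eb232010 rose to 911 ± 77.5 FPKM at 1 h, against 82.3 ± 26.7 at 0 h (3.50), and Zm00001eb177410 to 304 ± 45.0, against 11.0 ± 2.01 at 0 h (4.67).

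Chaperonins were divided. Of 27 genes of the Cpn60/TCP-1 family, whose barrel-shaped complexes fold proteins inside plastids, mitochondria and the cytosol, 8 were higher and 9 lower (median −0.13 as deposited, but 0.75 with median-ratio scaling and 0.59 with quantile normalization). The share lower was 33.3%, against 43.7% of all tested genes. The higher members with the largest 1 h means are given first, and a rise itself adds to that level. Zm00001eb065160 had 1061, 1401 and 1569 FPKM at 1 h, against 88.9, 87.0 and 146 FPKM at 0 h (log2 fold change 3.66, SE 0.20, adjusted p 7.72e-10 by limma), and Zm00001eb378930 had 1130.1, 1085 and 1101 FPKM at 1 h, against 186, 135 and 201 FPKM at 0 h (log2 fold change 2.68, SE 0.15, adjusted p 6.95e-10 by limma). The lower members with the largest 0 h means were Zm00001eb019420 (4.80 ± 1.64 FPKM at 1 h, 47.6 ± 19.4 at 0 h, −3.02), Zm00001eb207780 (13.9 ± 4.17 FPKM at 0 h, −2.14) and Zm00001eb260170 (13.4 ± 0.68 FPKM at 0 h, −2.50). With median-ratio scaling 11 members were higher and 4 lower.

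A gene with the ClpA/ClpB lid domain, found in Hsp100 proteins that pull apart aggregates, reached 625, 986 and 1128 FPKM at 1 h, against 17.5, 12.6 and 23.9 FPKM at 0 h (Zm00001eb393250, log2 fold change 5.59, SE 0.26, adjusted p 1.22e-10 by limma). Another, Zm00001eb084420, fell to 7.33 ± 0.57 FPKM at 1 h, against 23.2 ± 0.68 at 0 h (−1.54), a call that median-ratio scaling (−0.47) and quantile normalization (−0.71) did not keep. The remaining tested gene of this label was not called. BAG domain genes, whose proteins bind Hsp70, gave 2 higher and 3 lower of 8 tested (37.5% lower, against 43.7% of all tested genes). Their median was −0.51 as deposited, 0.20 with median-ratio scaling and 0.35 with quantile normalization. Zm00001eb237960 rose to 2791, 3311 and 3548 FPKM at 1 h, against 208, 129 and 329.9 FPKM at 0 h (log2 fold change 3.95, SE 0.26, adjusted p 3.94e-09 by limma), and Zm00001eb148980 rose by 1.09. The lower members were Zm00001eb318990 (−1.89), Zm00001eb198560 (−3.27) and Zm00001eb378640 (−1.70), of which Zm00001eb318990 (−0.74) and Zm00001eb378640 (−0.59) were not called with median-ratio scaling.

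Calreticulin, calnexin and Bax inhibitor 1-related genes were mostly higher. All 5 genes of calreticulin and calnexin, lectin chaperones that hold newly made glycoproteins, were higher (median 2.07). Zm00001eb084590 had 491, 547 and 589 FPKM at 1 h, against 81.2, 75.6 and 71.7 FPKM at 0 h (log2 fold change 2.81, SE 0.16, adjusted p 8.88e-10 by limma), Zm00001eb304290 rose by 2.53 and Zm00001eb421600 by 1.63. Of 6 Bax inhibitor 1-related genes, encoding membrane proteins that restrain cell death, 4 were higher and 1 lower (median 2.57). Zm00001eb230820 had 3711, 3933 and 3861 FPKM at 1 h, against 261, 274 and 252 FPKM at 0 h (log2 fold change 3.87, SE 0.25, adjusted p 3.06e-09 by limma). Zm00001eb057010 had 2265, 2738 and 2884 FPKM at 1 h, against 6.22, 3.61 and 15.3 FPKM at 0 h (log2 fold change 8.33, SE 0.35, adjusted p 4.28e-11 by limma), and Zm00001eb215030 had 1185, 1177 and 1182 FPKM at 1 h, against 2.22, 3.72 and 3.52 FPKM at 0 h (log2 fold change 8.17, SE 0.27, adjusted p 4.07e-12 by limma). In both genes every 1 h library was above 1000 FPKM and every 0 h library under 20. The lower member, Zm00001eb208690, was at 2.96 ± 2.08 FPKM at 1 h and 11.8 ± 4.96 at 0 h (−1.78) and was not called with median-ratio scaling (−0.86).

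Alternative oxidase passes electrons in mitochondria directly to oxygen and thereby bypasses part of the respiratory chain. Zm00001eb071870 reached 643, 849 and 1012 FPKM at 1 h, against 4.13, 6.75 and 4.71 FPKM at 0 h (log2 fold change 7.07, SE 0.22, adjusted p 2.26e-12 by limma), and Zm00001eb071890 reached 44.5, 63.0 and 77.0 FPKM at 1 h, against 0.57, 0.99 and 0.41 FPKM at 0 h (log2 fold change 5.22, SE 0.22, adjusted p 4.11e-11 by limma). Both were far above every 0 h library. Another gene, Zm00001eb066920, fell to 5.82 ± 0.76 FPKM at 1 h, against 21.5 ± 4.84 at 0 h (−1.71), and was not called with median-ratio scaling (−0.65) or quantile normalization (−0.84). Of 3 catalase genes, which remove hydrogen peroxide, 2 were lower. Zm00001eb002510 had 15.8, 26.3 and 26.3 FPKM at 1 h, against 223, 212 and 115 FPKM at 0 h (log2 fold change −2.93, SE 0.26, adjusted p 9.89e-08 by limma), and Zm00001eb209570 had 8.03, 6.05 and 3.06 FPKM at 1 h, against 12.9, 44.2 and 96.3 FPKM at 0 h (log2 fold change −2.63, SE 0.49, adjusted p 0.000162 by limma).

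Few light-harvesting genes were called. Of 21 chlorophyll a/b binding genes, none was higher and 2 were lower (9.52%, against 43.7% of all tested genes), but 3 were higher and none lower with median-ratio scaling. Their median was −0.68 as deposited, 0.48 with median-ratio scaling and −1.11 with quantile normalization. The 1 h libraries differed in these genes, which held 7.10, 4.76 and 2.92% of their FPKM, against 7.89, 8.50 and 8.28% at 0 h. Replicate 1 at 1 h lay close to the 0 h libraries, and without it 11 members were lower. The number was 5 without replicate 3 at 0 h, 4 without replicate 2 or 3 at 1 h, and 1 without replicate 1 at 0 h. Of the 2 called genes, Zm00001eb255850 had 153, 154 and 152 FPKM at 1 h, against 436, 299 and 233 FPKM at 0 h (log2 fold change −1.02, SE 0.18, adjusted p 0.000107 by limma), and was not called without replicate 1 at 0 h (−0.78). Its sign turned with median-ratio scaling (0.14). Zm00001eb431840 had 27.4, 28.8 and 34.5 FPKM at 1 h, against 107, 105 and 66.1 FPKM at 0 h (log2 fold change −1.56, SE 0.18, adjusted p 1.45e-06 by limma), and was not called with median-ratio scaling (−0.41). One member without a call, Zm00001eb161410, singled out after its values were seen, had 1856, 788 and 0 FPKM at 1 h, against 4312, 5309 and 3043 FPKM at 0 h. Replicate 3 at 1 h was the one listed at 0, and in W22 the gene was listed at 0 in all 3 libraries at 1 h and at 0, 0 and 3.56 FPKM at 0 h.

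Carbonic anhydrase, which supplies bicarbonate for the first carbon fixation of C4 photosynthesis, had 2 of 7 genes lower and none higher (28.6% lower, against 43.7% of all tested genes, median −0.41). Zm00001eb158800 had 626, 475 and 447 FPKM at 1 h, against 1801, 1310.4 and 786 FPKM at 0 h (log2 fold change −1.27, SE 0.25, adjusted p 0.000245 by limma), and Zm00001eb083840 had 68.3, 53.8 and 34.0 FPKM at 1 h, against 269, 102 and 152 FPKM at 0 h (log2 fold change −1.67, SE 0.31, adjusted p 0.000137 by limma). Neither was called with median-ratio scaling (−0.10 and −0.51), and Zm00001eb158800 was not called without replicate 1 at 0 h (−0.99).

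Among transcription factors, the AP2/ERF genes, which include regulators of ethylene and stress responses, went both ways. Of 83 tested, 11 were higher and 43 lower (51.8%, against 43.7% of all tested genes, median −1.27), or 24 higher and 27 lower with median-ratio scaling. Zm00001eb352580 fell to 9.49, 9.77 and 8.23 FPKM at 1 h, against 125, 157 and 88.7 FPKM at 0 h (log2 fold change −3.58, SE 0.21, adjusted p 1.37e-09 by limma). Zm00001eb042240 (79.3 ± 16.6 FPKM at 1 h, 221 ± 23.8 at 0 h, −1.48) and Zm00001eb125330 (−2.89) were also lower, of which Zm00001eb042240 was not called with median-ratio scaling (−0.32). In the other direction Zm00001eb303690 reached 211, 202 and 183 FPKM at 1 h, against 41.8, 33.5 and 23.1 FPKM at 0 h (log2 fold change 2.60, SE 0.26, adjusted p 2.41e-07 by limma), and Zm00001eb347600 rose by 2.43.

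Basic-leucine zipper (bZIP) genes went both ways, with 8 of 43 higher and 14 lower (median −0.29 as deposited, 0.25 with median-ratio scaling and 0.17 with quantile normalization, where 16 and 13 members were higher). The 14 are 32.6%, against 43.7% lower over all tested genes. Zm00001eb389660 fell to 16.2, 12.1 and 13.8 FPKM at 1 h, against 95.7, 161 and 119.6 FPKM at 0 h (log2 fold change −3.05, SE 0.20, adjusted p 3.97e-09 by limma). Zm00001eb235510 (−3.47) and Zm00001eb296340 (−2.23) fell as well, while Zm00001eb110370 rose to 98.9, 132 and 149.7 FPKM at 1 h, against 37.3, 36.1 and 33.7 FPKM at 0 h (log2 fold change 1.78, SE 0.15, adjusted p 4.45e-08 by limma). Zm00001eb331170 was higher by 1.19, a call lost without replicate 3 at 1 h (0.98). Of 26 genes with the CCT domain, known from flowering-time and clock proteins, 1 was higher and 13 were lower (50%, against 43.7% of all tested genes, median −0.96, against −0.92). The highest of the lower ones were Zm00001eb389540 (−1.11), Zm00001eb216410 (−1.67) and Zm00001eb391230 (−2.47), and Zm00001eb170920 rose to 23.4 ± 1.49 FPKM at 1 h, against 4.65 ± 1.97 at 0 h (2.17). Zm00001eb389540 was not called without replicate 1 (−0.90) or 2 (−0.99) at 0 h or replicate 1 at 1 h (−0.95), and with median-ratio scaling it stood at 0.06. With that scaling Zm00001eb216410 was not called either (−0.52), and 4 CCT genes were higher and 6 lower.

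All 7 genes with the CO/COL/TOC1 site, shared by CONSTANS-like and clock proteins, were lower (median −1.98), 4 of them also with median-ratio scaling. Zm00001eb312170 had 22.4, 25.0 and 27.1 FPKM at 1 h, against 183, 224 and 167 FPKM at 0 h (log2 fold change −2.89, SE 0.12, adjusted p 3.5e-11 by limma). Zm00001eb019470 (−1.17) was not called without replicate 1 at 1 h (−0.95), with median-ratio scaling (−0.02) or with quantile normalization, and Zm00001eb109190 (−1.65) was not called with median-ratio scaling (−0.50). Of 13 genes for 14-3-3 proteins, which bind phosphorylated partners, 10 were lower (76.9%, against 43.7% of all tested genes) and 1 higher (median −1.43), or 3 and 1 with median-ratio scaling. Zm00001eb179490 had 19.1, 39.2 and 50.3 FPKM at 1 h, against 162, 233 and 192 FPKM at 0 h (log2 fold change −2.49, SE 0.24, adjusted p 2.2e-07 by limma), while Zm00001eb300650 (−1.76) and Zm00001eb113790 (−1.50) were lower as deposited but not called with median-ratio scaling (−0.61 and −0.35). Zm00001eb078450 was the higher one, at 1.69, 3.78 and 5.01 FPKM at 1 h, against 1.26, 0 and 0 FPKM at 0 h (log2 fold change 1.70, SE 0.33, adjusted p 0.000216 by limma).

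**Figure D4:**
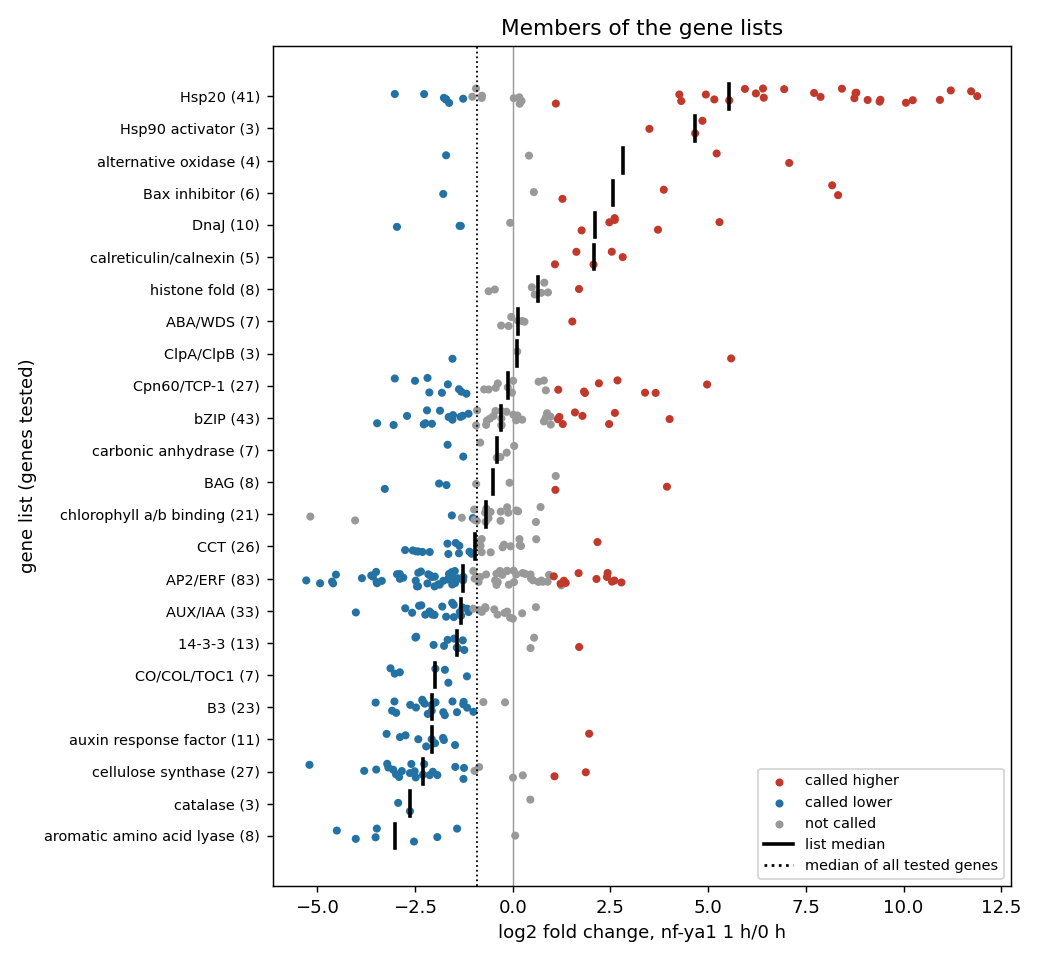
Log2 fold change of *nf-ya1* 1 h/0 h for every tested member of the 24 domain lists, ordered by the median of the list, with the number of tested genes in parentheses. Points are genes, coloured by their call, thick lines are list medians, and the dotted line marks the median of all tested genes (−0.92).

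Auxin-related transcription factors were mostly lower. Auxin response factors bind promoters of auxin-regulated genes, and AUX/IAA proteins repress them until auxin triggers their breakdown. Of 11 auxin response factor genes 10 were lower (90.9%, against 43.7% of all tested genes) and 1 higher (median −2.07), or 9 lower and 1 higher with median-ratio scaling. Zm00001eb221620 had 0.88, 0.54 and 0.53 FPKM at 1 h, against 12.2, 12.9 and 18.9 FPKM at 0 h (log2 fold change −3.23, SE 0.17, adjusted p 4.43e-10 by limma), Zm00001eb273540 fell by 2.42 and Zm00001eb224680 by 2.07. Zm00001eb067270 was higher, at 3.19, 2.97 and 2.97 FPKM at 1 h, against 0.02, 0.02 and 0.09 FPKM at 0 h (1.96). Of 33 AUX/IAA genes 20 were lower (60.6%, against 43.7% of all tested genes) and none was higher (median −1.32), or 10 lower and 1 higher with median-ratio scaling. Zm00001eb122410 had 46.6, 47.2 and 48.0 FPKM at 1 h, against 154, 139 and 119 FPKM at 0 h (log2 fold change −1.51, SE 0.10, adjusted p 3.17e-09 by limma), a call lost with median-ratio scaling (−0.35). Zm00001eb142540 (−2.75) and Zm00001eb350370 (−2.34) fell further. Genes with a B3 DNA-binding domain but without the auxin response factor label gave 21 lower and none higher of 23 (91.3% lower, against 43.7% of all tested genes, median −2.07), or 13 lower with median-ratio scaling. Zm00001eb082150 fell to 6.39, 6.09 and 5.47 FPKM at 1 h, against 92.4, 77.6 and 67.0 FPKM at 0 h (log2 fold change −3.51, SE 0.12, adjusted p 6.51e-12 by limma), Zm00001eb363810 fell by 2.98, and Zm00001eb156040 (−1.54) was lower as deposited but not called with median-ratio scaling (−0.45) or quantile normalization (−0.73).

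Most genes with a cellulose synthase or an aromatic amino acid lyase label fell. Of 27 cellulose synthase genes, with or without the RING-type zinc finger label, 21 were lower (77.8%, against 43.7% of all tested genes) and 2 higher (median −2.30), or 16 and 2 with median-ratio scaling. Zm00001eb306030 had 58.1, 39.2 and 24.5 FPKM at 1 h, against 189, 245 and 285 FPKM at 0 h (log2 fold change −2.60, SE 0.30, adjusted p 1.3e-06 by limma). Zm00001eb172230 had 49.3, 37.5 and 27.7 FPKM at 1 h, against 128, 159 and 299 FPKM at 0 h (log2 fold change −2.27, SE 0.31, adjusted p 7.55e-06 by limma), and Zm00001eb415630 fell by 2.84. In all 3 genes every 1 h library was below every 0 h library. The 2 higher members did not keep their calls when libraries were left out. Zm00001eb082890, whose times overlapped (43.0, 123 and 166 FPKM at 1 h, 21.7, 63.0 and 11.8 FPKM at 0 h, 1.87), was not called without replicate 1 or 3 at 0 h or replicate 2 or 3 at 1 h (1.35 to 1.76, adjusted p 0.0105 to 0.0172). Zm00001eb097100 (1.07) was not called without replicate 1 at 0 h (0.81).

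Aromatic amino acid lyase, the entry enzyme of the phenylpropanoid pathway to lignin, had 7 of 8 genes lower (87.5%, against 43.7% of all tested genes) and none higher (median −3.0), or 5 lower and 1 higher with median-ratio scaling. Zm00001eb185240 had 139, 87.2 and 51.1 FPKM at 1 h, against 344, 426 and 835 FPKM at 0 h (log2 fold change −2.53, SE 0.35, adjusted p 9.43e-06 by limma). Zm00001eb247630 had 90.3, 101 and 106 FPKM at 1 h, against 302, 416 and 436 FPKM at 0 h (log2 fold change −1.93, SE 0.21, adjusted p 6.51e-07 by limma), a call lost with median-ratio scaling (−0.77). Zm00001eb247660 had 7.91, 9.01 and 8.68 FPKM at 1 h, against 101, 158 and 77.9 FPKM at 0 h (log2 fold change −3.51, SE 0.32, adjusted p 1.14e-07 by limma).

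Few histone fold and ABA/WDS genes were called. Of 8 histone fold genes, whose proteins build chromatin, 1 was higher (median 0.65). Zm00001eb148730 had 233, 114 and 45.4 FPKM at 1 h, against 35.2, 39.5 and 24.2 FPKM at 0 h (log2 fold change 1.70, SE 0.48, adjusted p 0.00448 by limma), and its call was lost without replicate 1 (1.14) or 2 (1.65) at 1 h or replicate 3 at 0 h (1.49). Without replicate 3 at 1 h 4 members were higher, and with median-ratio scaling 6. Of 7 genes for proteins induced by abscisic acid, water deficit or ripening (ABA/WDS), 1 was higher (median 0.13, but −0.39 with quantile normalization). This was Zm00001eb131490, at 4.41, 3.34 and 3.37 FPKM at 1 h, against 0.9, 0.86 and 0.22 FPKM at 0 h (log2 fold change 1.52, SE 0.29, adjusted p 0.000227 by limma).

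Some genes of other families, named for their fall in *nf-ya1*, lost most of their transcript level. Zm00001eb290370, with an aminotransferase class-III domain, had 3.09, 1.90 and 0.75 FPKM at 1 h, against 248, 582 and 162 FPKM at 0 h (log2 fold change −6.71, SE 0.41, adjusted p 2.15e-09 by limma), while W22 had 0.67 ± 0.21 FPKM at 1 h and 1.88 ± 0.39 FPKM at 0 h (SD, n = 3 each). Zm00001eb056760, without a label, had 1.20, 0.83 and 1.29 FPKM at 1 h, against 305, 254 and 94.1 FPKM at 0 h (log2 fold change −6.54, SE 0.33, adjusted p 2.6e-10 by limma), and W22 had 0.34 ± 0.22 FPKM at 1 h and 0.74 ± 0.39 FPKM at 0 h. Zm00001eb088800, with an alcohol dehydrogenase domain, had 5.77, 6.19 and 6.62 FPKM at 1 h, against 401, 433 and 275 FPKM at 0 h (log2 fold change −5.66, SE 0.26, adjusted p 1.14e-10 by limma), and W22 had 5.68 ± 2.36 FPKM at 1 h and 66.3 ± 23.2 FPKM at 0 h. All 3 falls were present with median-ratio scaling (−5.79, −5.67 and −4.58). A gene with a Barwin domain, known from defence proteins, rose to 4.01, 16.2 and 22.9 FPKM at 1 h, against 1.11, 0.23 and 2.92 FPKM at 0 h (Zm00001eb167720, log2 fold change 2.55, SE 0.57, adjusted p 0.000767 by limma). This gene was named for its interaction, and W22 had 0.61 ± 0.34 FPKM at 1 h and 30.9 ± 18.2 FPKM at 0 h.

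Genes whose promoters the study tested with the NF-YA1 protein, and *ZmNF-YA1* itself, measured as gene FPKM, responded in different directions. *ZmNF-YA1* (Zm00001eb005690) rose to the levels given above (log2 fold change 1.15, SE 0.20, adjusted p 0.000103 by limma), with no overlap between the times, but without replicate 1 at 1 h the change was under the threshold (0.997). *HUP26* (Zm00001eb406490) had 1857, 1821 and 2165 FPKM at 1 h, against 15.3, 11.7 and 33.0 FPKM at 0 h (log2 fold change 6.66, SE 0.39, adjusted p 1.35e-09 by limma). *ASN3* (Zm00001eb013430), an asparagine synthase, had 13.5, 17.1 and 19.4 FPKM at 1 h, against 1.60, 0.84 and 0.28 FPKM at 0 h (log2 fold change 3.26, SE 0.52, adjusted p 3.63e-05 by limma). *NIP2c* (Zm00001eb372380), a channel protein of the aquaporin superfamily, had 4.30, 3.02 and 1.69 FPKM at 1 h, against 45.0, 83.0 and 79.8 FPKM at 0 h (log2 fold change −4.14, SE 0.26, adjusted p 2.73e-09 by limma). In all 3 the times were far apart. The responses of *HUP26* and *ASN3* were not called different from those of W22 (interaction 1.89 and −2.28, limma adjusted p 0.0147 and 0.0233), while *ASN3* stood at 759.5 ± 463 FPKM in W22 at 1 h and 14.9 ± 7.13 FPKM in W22 at 0 h. The interaction of *HUP26* was called with median-ratio scaling (2.30, adjusted p 0.00456), when only the compared groups were fitted (adjusted p 0.00765) and without replicate 3 of *nf-ya1* at 0 h (2.30, adjusted p 0.00318). *GRF1* (Zm00001eb080570) had 57.4, 68.9 and 89.6 FPKM at 1 h, against 245, 157 and 151 FPKM at 0 h (log2 fold change −1.33, SE 0.19, adjusted p 9.34e-06 by limma), and was not called with median-ratio scaling (−0.18). Neither *bZIP100* (Zm00001eb373300, 9.07, 13.7 and 18.8 FPKM at 1 h, 5.36, 5.19 and 8.97 FPKM at 0 h, log2 fold change 0.97, SE 0.23, adjusted p 0.00123 by limma) nor *JIH5* (Zm00001eb211100, 1.85, 0.9 and 0.31 FPKM at 1 h, 2.06, 2.32 and 4.03 FPKM at 0 h, log2 fold change −0.95, SE 0.24, adjusted p 0.00211 by limma) reached a change of 1. *bZIP100* was called without replicate 1 at 1 h (1.22) or replicate 3 at 0 h (1.19) and with median-ratio scaling (2.02), and *JIH5* without replicate 1 at 1 h (−1.23) or replicate 1 (−1.09) or 2 (−1.03) at 0 h. The fall of *JIH5* was only −0.285 with median-ratio scaling (limma adjusted p 0.338) and −0.111 with quantile normalization.

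The *nf-ya1* response was set against that of W22 by the interaction, the log2 fold change in *nf-ya1* minus that in W22. It called 956 genes with a larger (more positive) response in *nf-ya1* (4.24%) and 2894 with a smaller (more negative) one (12.8%). A smaller response can therefore be a deeper fall in *nf-ya1*, and a larger one a weaker fall. The median over all tested genes was −0.35 as deposited and 0.00 with median-ratio scaling, under which 1769 were larger and 1250 smaller. Of the Hsp20 genes 10 were larger and 2 smaller (median 1.39), or 17 larger and none smaller with median-ratio scaling. The Hsp20 genes as a whole held 17.8 ± 0.42% of FPKM in *nf-ya1* and 16.8 ± 0.48% in W22 at 1 h, and 0.20 ± 0.081% in *nf-ya1* and 0.55 ± 0.017% in W22 at 0 h (SD, n = 3 each). Zm00001eb397940 (interaction 3.69, SE 0.41, limma adjusted p 1.38e-05) had 9254 ± 585 FPKM in W22 at 1 h and 30.6 ± 1.21 FPKM in W22 at 0 h. At 0 h every *nf-ya1* library of this gene, which was named for its rise in *nf-ya1*, was below every W22 library.

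The other lists differed in direction. Their counts can be read against 4.24% larger and 12.8% smaller over all 22572 tested genes. With median-ratio scaling 1769 of the 22572 were larger and 1250 smaller. In the Cpn60/TCP-1 list 10 of 27 responses were smaller in *nf-ya1* and none larger (median −0.86), or 3 and none with median-ratio scaling. In AP2/ERF 31 of 83 were smaller and 8 larger, but 20 and 14 with median-ratio scaling. In AUX/IAA 8 of 33 were smaller and none larger, but with that scaling 3 were smaller and 2 larger, so no single direction held. In CO/COL/TOC1 5 of 7 were smaller and none larger, or 2 and none with scaling, and in cellulose synthase 9 of 27 were smaller and 1 larger, or 4 and 1 with scaling. Chlorophyll a/b binding genes went the other way, with 4 larger and none smaller of 21 (median 0.71). Their median log2 fold change was −0.68 in *nf-ya1* and −1.70 in W22. With median-ratio scaling 8 of these were larger and none smaller. The 1 h libraries of *nf-ya1* differed in these genes, with 7.10, 4.76 and 2.92% of FPKM. In *nf-ya1* 2 of 21 were lower with all libraries and 11 without replicate 1 at 1 h, against 13 of 21 in W22. The genotype difference in this list thus depended on that library. Aromatic amino acid lyase (median −3.0 in *nf-ya1*, −2.87 in W22) and calreticulin and calnexin (2.07 in *nf-ya1*, 2.17 in W22) had medians that lay close together, with 1 larger and 1 smaller response of 8 in the first list and none of 5 in the second. One gene without a label, picked for its large interaction, went in opposite directions in the genotypes. Zm00001eb299450 reached 219.7, 298 and 360.1 FPKM in *nf-ya1* at 1 h, against 22.6, 16.6 and 9.22 FPKM in *nf-ya1* at 0 h, whereas W22 had 16.0, 15.0 and 9.18 FPKM at 1 h and 202, 218 and 156 FPKM at 0 h (interaction 7.92, SE 0.43, limma adjusted p 3.87e-08). It was thus higher after heat stress in *nf-ya1* and lower in W22.

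**Figure D5:**
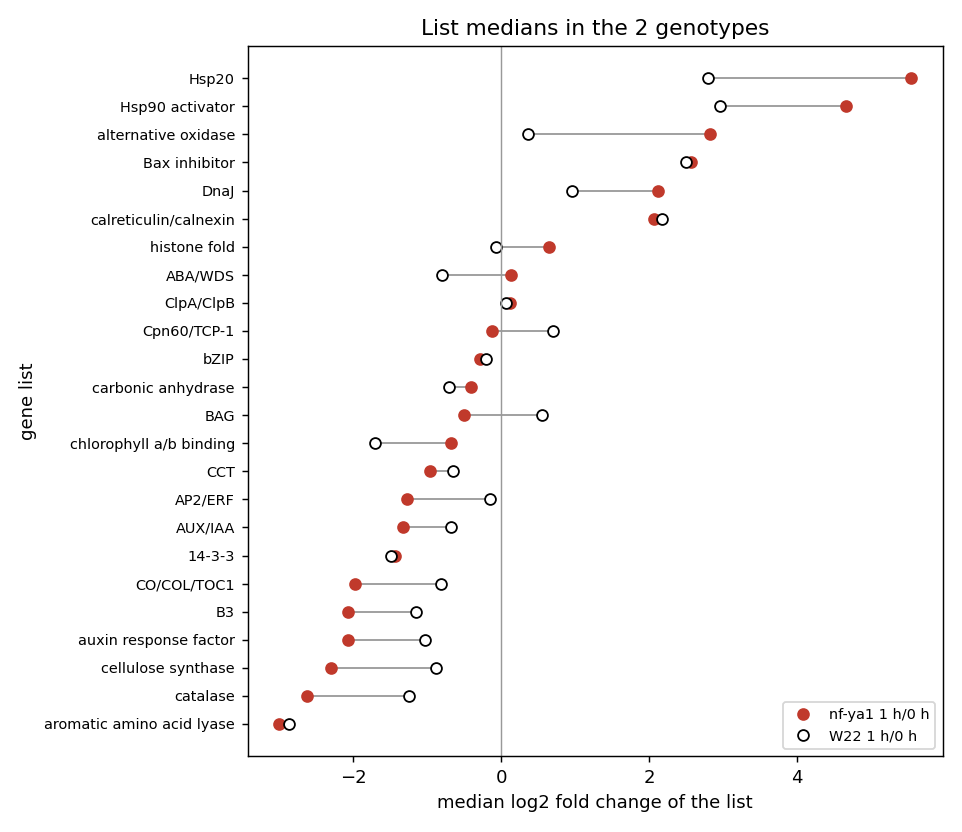
Median log2 fold change at 1 h/0 h of each of the 24 domain lists in *nf-ya1* (filled) and in W22 (open), ordered by the *nf-ya1* value. The Hsp20 median is 5.54 in *nf-ya1* and 2.80 in W22, whereas chlorophyll a/b binding genes stand at −0.68 in *nf-ya1* and −1.70 in W22. The 1 h libraries of *nf-ya1* differed in the chlorophyll a/b binding genes (7.10, 4.76 and 2.92% of FPKM).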

How the data were processed

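RNA of the first fully expanded leaf, taken at mid-blade, was sequenced by the submitters (BGISEQ-500), with the B73 version 5 genome named in the submitters' processing notes. The deposited table holds FPKM computed by the authors, with no counts, so depth is unknown and no count test was possible. How reads shared by paralogs were assigned is not given in the sources used here. Genes with at least 1 FPKM in at least 3 of the 18 libraries (22572 of 36321, of which 2933 in the table carry BGI_novel IDs) were tested with limma 3.58.1 (R 4.3.3, trend, 1 mean per group) on log2(FPKM + 1), so fold changes of low genes are understated. All 18 libraries shared 1 estimate of the spread, and p-values were adjusted by Benjamini-Hochberg. Calls needed an adjusted p of 0.01 and a log2 fold change of 1. The labels do not say whether replicates are separate plants, so p-values measure the spread between these samples.

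Named genes were *ZmNF-YA1* and the 6 promoter genes, then, among called genes whose times did not overlap (mean of at least 10 FPKM), the 10 largest rises and falls and the 6 largest gains and losses in FPKM. To these came the 3 most abundant called members of each list, up to 2 against its main direction, and the 6 largest interactions each way, leaving out most genes without annotation. The members, lists and rules were chosen with earlier results of these data known. Lists of domain labels came from the study's supplementary gene table, of which the part used here holds 1996 genes. Of 37 lists worded by gene function, 18 found at least 3 labelled genes, and the 24 lists reported were set from the labels themselves. No gene ID matched the reference gene table, so no sequences are shown. The fit was tested on simulated data. Alternatives were pseudocounts of 0.1 and 0.01, other filters, median-ratio and quantile scaling, other thresholds and fits, a replicate block, each library left out and, chosen after seeing the data, the total without Hsp20 genes.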

Additional observations from a re-analysis of the deposited data

Results flagged for a closer look

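Responses to 1 h of heat stress differed between *nf-ya1* and W22 in 45 of the 104 genes named in the text. The calls come from the interaction test of the limma fit, at an adjusted p of 0.01 and a difference of at least 1 on the log2 scale. Over all 22572 tested genes 4.24% were called larger and 12.8% smaller. Each value below is the log2 fold change in *nf-ya1* minus that in W22, followed by its adjusted p. Larger here means more positive and smaller more negative, so a gene called smaller may have fallen more deeply in *nf-ya1*. For example, Zm00001eb288550 changed by −2.96 in *nf-ya1* and by −0.06 in W22. These genes were named largely for their response in *nf-ya1*, so their number says nothing about other genes. Zm00001eb299450 and Zm00001eb167720 were named for their interaction alone, and Zm00001eb290370 and Zm00001eb056760 for both their fall and their interaction. The others were named from their change in *nf-ya1*, which is part of the interaction. None of these interaction p-values is therefore independent evidence.

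Among chaperone genes, the Hsp20 members with a larger response in *nf-ya1* were Zm00001eb397940 (3.69, adjusted p 1.38e-05), Zm00001eb011930 (3.34, adjusted p 0.00188), Zm00001eb337690 (2.23, adjusted p 0.000245), Zm00001eb081770 (2.08, adjusted p 0.0027), Zm00001eb423300 (1.95, adjusted p 0.00676) and Zm00001eb011900 (1.65, adjusted p 0.00383). The DnaJ genes Zm00001eb295770 (2.99, adjusted p 1.21e-05) and Zm00001eb106600 (1.53, adjusted p 0.000403) and the Hsp90 activators Zm00001eb177410 (2.20, adjusted p 3.42e-06) and Zm00001eb037640 (1.62, adjusted p 0.00059) were larger as well. Smaller responses were found in the DnaJ genes Zm00001eb288550 (−2.91, adjusted p 0.000989) and Zm00001eb218560 (−1.13, adjusted p 0.00176), the chaperonins Zm00001eb260170 (−1.56, adjusted p 0.000494) and Zm00001eb207780 (−1.28, adjusted p 0.00514), and the BAG genes Zm00001eb198560 (−3.44, adjusted p 0.00038) and Zm00001eb318990 (−1.85, adjusted p 0.00674).

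The Bax inhibitor genes Zm00001eb057010 (2.51, adjusted p 0.0012) and Zm00001eb215030 (2.40, adjusted p 0.000257) and the alternative oxidases Zm00001eb071890 (3.93, adjusted p 7.9e-07) and Zm00001eb071870 (1.86, adjusted p 0.00039) had larger responses, whereas the Bax inhibitor gene Zm00001eb208690 (−2.06, adjusted p 0.00414) had a smaller one. Among regulators, larger responses belonged to the AP2/ERF gene Zm00001eb303690 (1.88, adjusted p 0.00102), the auxin response factor Zm00001eb067270 (1.97, adjusted p 2.92e-06) and the CCT gene Zm00001eb170920 (1.52, adjusted p 0.0004). Smaller ones were those of the AP2/ERF genes Zm00001eb352580 (−3.01, adjusted p 5.66e-06) and Zm00001eb042240 (−1.87, adjusted p 0.00661), the bZIP genes Zm00001eb389660 (−2.07, adjusted p 8.28e-05) and Zm00001eb296340 (−1.64, adjusted p 0.00144), and the B3 genes Zm00001eb363810 (−2.09, adjusted p 2.85e-05) and Zm00001eb082150 (−1.58, adjusted p 1.38e-05). The auxin response factors Zm00001eb224680 (−1.41, adjusted p 0.00448) and Zm00001eb221620 (−1.39, adjusted p 0.00052), the AUX/IAA genes Zm00001eb142540 (−2.39, adjusted p 5.52e-05) and Zm00001eb122410 (−1.84, adjusted p 5.22e-07), and the CO/COL/TOC1 genes Zm00001eb312170 (−2.08, adjusted p 1.03e-06) and Zm00001eb019470 (−1.05, adjusted p 0.00244) were also smaller.

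Of the cellulose synthase genes, Zm00001eb415630 (−2.08, adjusted p 0.00157) and Zm00001eb172230 (−1.65, adjusted p 0.00835) were smaller and Zm00001eb097100 (1.29, adjusted p 0.000776) was larger, as was the ABA/WDS gene Zm00001eb131490 (2.15, adjusted p 0.00109). The gene with a Barwin domain, Zm00001eb167720 (6.65, adjusted p 3.27e-05), and the gene without a label Zm00001eb299450 (7.92, adjusted p 3.87e-08) were larger. The aminotransferase gene Zm00001eb290370 (−5.92, adjusted p 5.32e-06), the gene without a label Zm00001eb056760 (−6.17, adjusted p 5.85e-07) and the alcohol dehydrogenase gene Zm00001eb088800 (−2.34, adjusted p 0.000255) were smaller. Of the 45 calls, 9 were lost when 1 or more of the 12 libraries compared was left out in turn, namely those of Zm00001eb423300, Zm00001eb042240, Zm00001eb318990, Zm00001eb172230, Zm00001eb207780, Zm00001eb224680, Zm00001eb208690, Zm00001eb019470 and Zm00001eb011900. With median-ratio scaling 8 calls were lost, those of these genes other than Zm00001eb423300 and Zm00001eb011900, and that of Zm00001eb218560 (−0.69, adjusted p 0.011). A test against a fold change threshold (treat) lost 33 of the 45. With a replicate block, Zm00001eb423300 (adjusted p 0.0103), Zm00001eb318990 (0.0134) and Zm00001eb172230 (0.0154) were not called. With pseudocounts of 0.1 and 0.01, 5 and 6 calls were lost, and 5 when only the compared groups were fitted. These included Zm00001eb081770 (limma adjusted p 0.0153, 0.0273 and 0.0107, in that order) and Zm00001eb131490 (0.0151 and 0.124 with the pseudocounts). Zm00001eb337690 was lost with a pseudocount of 0.01 (0.0118). Zm00001eb081770, Zm00001eb131490 and Zm00001eb337690 averaged 3 FPKM or less at 0 h in both genotypes.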

How the results depend on the processing

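Median-ratio scaling gave 3497 higher and 2482 lower genes in *nf-ya1* at 1 h, and the interaction was larger in 1769 and smaller in 1250. With quantile normalization 3097 were higher and 2946 lower, and 1420 interactions were larger and 1215 smaller. Larger interactions thus outnumbered smaller ones under both scalings, unlike as deposited (956 larger, 2894 smaller). A mean FPKM of at least 5, which tests fewer genes, left 6169 lower, 592 larger and 1723 smaller. A test against a fold change threshold (treat), stricter by construction, called 968 higher, 3731 lower, 134 larger and 195 smaller. For the other shifts the cause was not tested. Zm00001eb255850 (0.14) and Zm00001eb389540 (0.056) turned sign with median-ratio scaling. Leaving out 1 library at a time gave 1623 to 1769 higher, 9274 to 10145 lower, 757 to 1042 larger and 2268 to 3218 smaller genes, 24 to 26 higher Hsp20 genes, and a distance between the times of 2.71 to 3.46 times the replicate spread. Of 102 calls among 104 named genes, 20 were lost with median-ratio scaling beside the 2 that turned, 7 with quantile normalization, 14 when only the compared groups were fitted and 27 with treat. With the total without Hsp20 genes, chosen after seeing the data, 1903 were higher and 8776 lower, and 907 interactions were larger and 3501 smaller.

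Replicate numbers are shared between the groups, but deviations of same-numbered 1 h and 0 h libraries correlated at 0.00, −0.01 and −0.17, so the numbers were not taken to pair the samples. A replicate block gave 1718 higher and 9796 lower genes, 881 larger and 2594 smaller interactions, and 26 higher Hsp20 genes, and of the named calls it lost 3 interactions. Read depth is unknown, so low FPKM carry an unknown counting error, and a value listed at 0 may hide a low level. With 3 libraries a group, changes of genes that spread widely between replicates are poorly fixed.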

Other observations

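Domain labels outside the lists with at least 10 tested genes were also examined, 27 in all, a choice made after seeing the data. Over all tested genes 43.7% were lower as deposited and 11% with median-ratio scaling. Among 30 genes of the lipid transfer and seed storage helical domain, whose products include carriers of lipids, 15 were lower at 1 h and none was higher in *nf-ya1* (median log2 fold change −1.78), or 4 lower and 1 higher with median-ratio scaling. These shares of lower genes, 50% and 13.3%, are near those over all genes. ABC-2 type transporter genes, membrane pumps driven by ATP, gave 7 lower and none higher of 10 (median −2.07), and 4 lower with that scaling. Of 14 PfkB carbohydrate kinase genes, which phosphorylate sugars, 11 were lower and 1 higher (median −1.37), or 5 and 1 with median-ratio scaling.

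Alcohol dehydrogenase genes gave 11 lower and 1 higher of 14 (median −1.31), or 4 lower and 2 higher with median-ratio scaling. Among 24 genes with the AAA-type ATPase core, a motor domain of many protein-remodelling machines, 6 were higher and 8 lower as deposited, and 9 higher and 5 lower with median-ratio scaling, and the median lay on different sides of 0 (−0.41 as deposited, 0.55 with scaling). B-box-type zinc finger genes, known for regulators of light responses, gave 2 higher and 5 lower of 15, or 6 higher and 3 lower with that scaling. These genes come from the study's own list of changed genes, so their directions are not independent evidence.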
